A study of Homo sapiens with 6 samples.

Results

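THP1 is a monocytic acute myeloid leukaemia cell line, and the genes described here are 32 that act in the synthesis of cholesterol and fatty acids and in its regulation. They were chosen by name, and for each the brightest probe set, by its mean over all arrays, was taken among those annotated to exactly 1 gene symbol. Of the 32, 29 had such a probe set, out of 19775 genes measured, and FDFT1, CYP51A1 and FADS1 had none, so that they are not analysed here. Cells of the Dll4-Fc group were grown for 48 hours on plastic coated with Dll4-Fc, a fusion of the ectodomain of Delta-like 4, a Notch ligand, to an immunoglobulin Fc region, and 3 such samples were measured. The dose is given as 60 nM in the sample labels and as 30 nM in the protocol. The untreated group, also 3 samples, is called vehicle in the protocol, and the labels name no plate coated with Fc alone. Both groups were the same cell line in the same serum-containing medium, so that 1 line stands for the disease. Each sample was hybridised to 1 Affymetrix U133 Plus 2.0 array, with the signal given per probe set on the log2 scale below.

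Cells make cholesterol from acetyl-CoA through mevalonate, isoprenoid units, squalene and lanosterol, and make fatty acids from the same acetyl-CoA through malonyl-CoA. Both routes are driven by the sterol regulatory element-binding proteins (SREBPs), membrane-bound transcription factors of the endoplasmic reticulum. When sterols are scarce, the escort protein SCAP carries them to the Golgi, where proteases release the active part; when sterols are plentiful, the INSIG proteins hold SCAP back. Macrophages also take up cholesterol from outside, release it in lysosomes, store it as esters and export it under control of the liver X receptors (LXRs).

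Across genes, which are not independent replicates, Pearson's r was 0.981 to 0.985 between a Dll4-Fc and an untreated array and 0.997 to 0.999 between arrays of 1 group. Of 9 monocytic markers 8 were measured, and 7 of them lay above the median probe set signal of 5.69 in Dll4-Fc arrays and 6 in untreated arrays. The log2 of the summed intensities of those markers was 14.4 to 14.6 in Dll4-Fc and 12.8 to 13.0 in untreated arrays. The brightest markers weigh most in such a sum, and LYZ averaged 13.9 in Dll4-Fc and 11.9 in untreated arrays. The 3 T cell and 3 epithelial markers all lay below that median in both groups. For the T cell markers the log2 of the summed intensities was 6.51 to 6.52 in Dll4-Fc and 6.45 to 6.53 in untreated arrays. The B cell, erythroid and fibroblast lists each had 1 marker above it in both groups, and none of the 3 passed the test: CD79A averaged 6.10 in Dll4-Fc and 6.17 in untreated arrays, HBB 6.52 and 6.74, and COL1A1 7.91 and 7.82. Of the monocytic markers PTPRC, SPI1, LYZ, CD14, ITGAM and CSF1R rose, by 0.31 to 5.64 on the log2 scale. The largest rise was that of CD14, from 4.98 in untreated to 10.6 in Dll4-Fc arrays. MPO gave -0.79 and passed as lower, and FCGR1A did not pass. Monocytic genes thus moved with the treatment, in both directions, beside the lipid genes. Their part in the lipid results was not tested. As in any bulk sample, a change per cell and a change in the make-up of the culture cannot be told apart.

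In cells on Dll4-Fc, 14 of the 29 lipid synthesis genes rose and 3 fell, and 12 did not pass the test. Of the rises 4 were in the mevalonate steps, 1 between isoprenoids and lanosterol, 5 from lanosterol to cholesterol, 1 in sterol transport, 2 in fatty acid desaturation and elongation and 1, INSIG1, in the SREBP system, and each was smaller than 2-fold. The 3 falls were also in the SREBP system. The steepest rises were those of MSMO1 and HMGCS1, by 1.65-fold and 1.62-fold, and the deepest fall that of SCAP, by 1.26-fold. The 14 genes make 48.3% of the members, where 11.6% of all genes tested were higher (limma, adjusted p under 0.05), and the 3 make 10.3%, where 15.0% of all genes were lower. With dim genes left out, 18.2% of all genes were higher and 25.5% lower, beside 14 and 3 of 28 members. The median difference over the 29 genes, Dll4-Fc minus untreated, was 0.20 on the log2 scale, against -0.01 over all genes. It was 0.11 when each gene was the mean of its probe sets and also 0.11 over the 20 members that have a probe set not shared between transcripts. Of those 20, 7 rose and 2 fell. That fit tested 16790 genes, and 41.6% of all its calls were higher. The shares of all genes given above are from other gene sets and do not apply to this count. The signals of 19 members did not overlap between the groups with Dll4-Fc above (18.1% of all genes), and those of 5 did not overlap with Dll4-Fc below (23.5% of all genes).

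**Figure D1:**
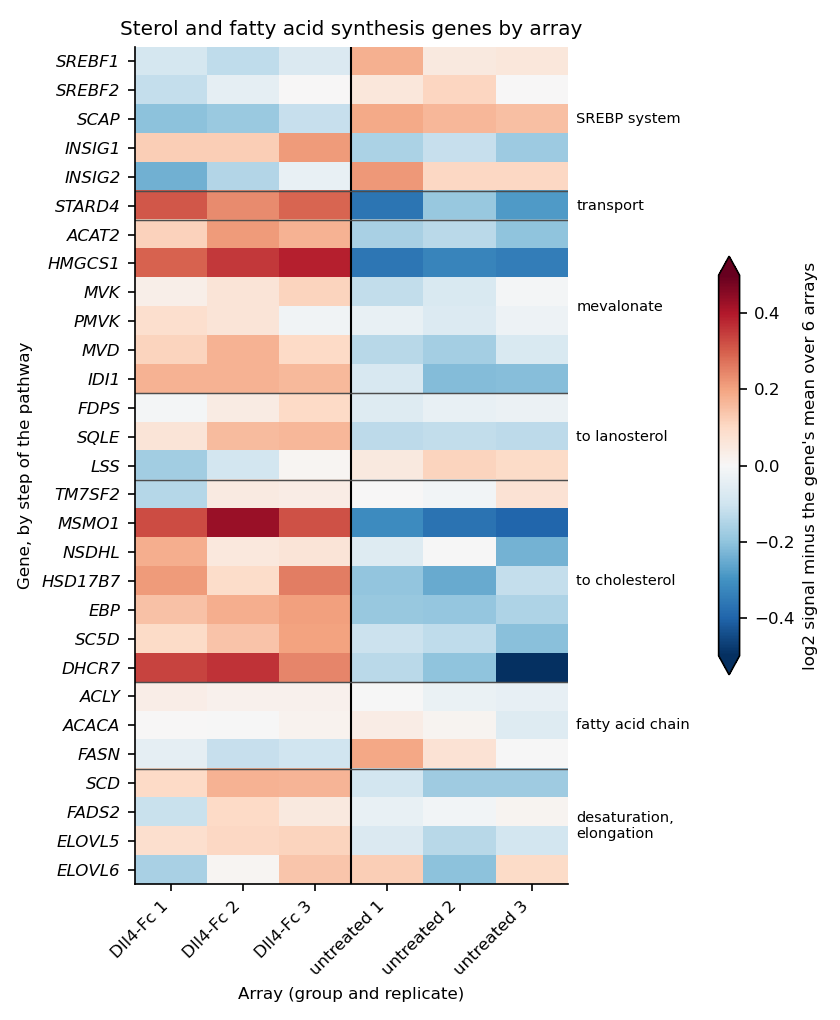
Heat map of the 29 measured genes (rows, by step of the pathway) on the 6 arrays (columns, Dll4-Fc left, untreated right). Colour is the log2 signal minus the gene's own mean over the arrays, cut at 0.5 in either direction; the rows of HMGCS1, MSMO1, STARD4 and DHCR7 are red on all Dll4-Fc arrays and blue on all untreated arrays, those of SCAP and INSIG2 the reverse, and DHCR7 on untreated array 3 lies beyond the scale.

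The 4 genes with the largest rises were MSMO1, HMGCS1, DHCR7 and STARD4. Their promoters are shown for a sequence feature that most members that rose had there. The list was made largely of sterol genes, on which this feature is known, so its share is not independent of the choice. The sequences are from RefSeq, build GRCh38.p14, and cover the 250 bases before the first listed start of each gene, 5′ to 3′ on the gene's strand; capitals mark the letters CCAAT on either strand, the box bound by the factor NF-Y, which works with SREBPs on sterol genes.
MSMO1 (chr4:165327419-165327668, plus strand): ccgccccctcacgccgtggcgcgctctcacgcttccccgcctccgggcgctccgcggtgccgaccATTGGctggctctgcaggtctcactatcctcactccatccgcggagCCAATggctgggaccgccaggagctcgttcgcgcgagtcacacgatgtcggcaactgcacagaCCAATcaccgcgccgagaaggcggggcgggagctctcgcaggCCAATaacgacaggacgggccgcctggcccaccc
HMGCS1 (chr5:43313413-43313662, minus strand): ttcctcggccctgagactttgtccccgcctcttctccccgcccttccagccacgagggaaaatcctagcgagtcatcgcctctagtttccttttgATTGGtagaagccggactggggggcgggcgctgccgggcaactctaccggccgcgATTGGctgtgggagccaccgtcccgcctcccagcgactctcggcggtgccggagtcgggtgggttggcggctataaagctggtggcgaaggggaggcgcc
DHCR7 (chr11:71448394-71448643, minus strand): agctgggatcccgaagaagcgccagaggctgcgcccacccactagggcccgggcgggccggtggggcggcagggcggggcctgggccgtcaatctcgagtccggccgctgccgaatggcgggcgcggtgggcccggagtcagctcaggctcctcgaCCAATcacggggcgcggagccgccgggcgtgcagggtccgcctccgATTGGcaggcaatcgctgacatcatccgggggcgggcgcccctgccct
STARD4 (chr5:111512536-111512785, minus strand): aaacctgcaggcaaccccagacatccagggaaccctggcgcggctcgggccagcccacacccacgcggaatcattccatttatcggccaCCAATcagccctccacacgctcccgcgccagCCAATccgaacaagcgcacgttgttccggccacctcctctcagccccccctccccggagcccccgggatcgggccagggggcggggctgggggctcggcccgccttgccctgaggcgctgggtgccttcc
MSMO1 had 4 such boxes and the other three had 2 each. Of the 32 genes 28 had a promoter in the table. The letters CCAAT, searched on both strands, stood in 11 of the 12 promoters of members that rose, in 7 of 11 of members that did not pass and in 0 of 3 of members that fell, against 33.0% of 27305 genes. IDI1 was the gene that rose without the box in this window. The GC box GGGCGG stood in 11 of the 12, 9 of the 11 and 3 of the 3, against 42.3% of all genes. With every listed start of a gene searched, CCAAT stood in 12 of 12 members that rose, IDI1 among them. It then stood in 8 of 11 that did not pass and 0 of 3 that fell, against 37% of all genes. These are letters and not sites, and no factor's binding was measured.

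Of the 5 genes of the SREBP system 3 fell and 1 rose. SCAP, the sterol-sensing escort of the SREBPs, had log2 signals of 9.09, 9.11 and 9.18 in Dll4-Fc and 9.49, 9.46 and 9.45 in untreated cells. Every Dll4-Fc array lay below every untreated one, and the difference was -0.34 ± 0.05 (SE, n = 3 arrays per group, limma adjusted p = 0.00304). SREBF1, which encodes SREBP-1, the main driver of fatty acid synthesis genes, had 8.54, 8.50 and 8.56 in Dll4-Fc and 8.81, 8.68 and 8.69 in untreated cells. The groups did not overlap and the difference of -0.19 ± 0.06 was just past the threshold (adjusted p = 0.0491). Under 11 of 15 alternative settings it did not pass, among them leaving out any 1 array, with an adjusted p of up to 0.151. SREBF2, which encodes SREBP-2, the main driver of the sterol genes, had 8.27, 8.35 and 8.40 in Dll4-Fc and 8.45, 8.50 and 8.39 in untreated cells. Dll4-Fc array 3 lay above untreated array 3, and the difference of -0.11 ± 0.06 did not pass (adjusted p = 0.24).

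The INSIG genes moved in opposite directions. INSIG1, itself a classic SREBP target and an anchor of SCAP in the endoplasmic reticulum, had 12.28, 12.28 and 12.37 in Dll4-Fc and 12.00, 12.04 and 11.98 in untreated cells. It rose by 0.30 ± 0.05 (1.23-fold, adjusted p = 0.00573), and all 3 of its probe sets rose, by 0.29 to 0.32. INSIG2, its relative, which in mouse liver is regulated apart from INSIG1, had 8.12, 8.21 and 8.32 in Dll4-Fc and 8.58, 8.47 and 8.46 in untreated cells. It fell by 0.28 ± 0.07 on the log2 scale (adjusted p = 0.0225), without overlap. The call was lost when any array other than Dll4-Fc replicate 3 or untreated replicate 3 was left out (adjusted p up to 0.084). It was also lost with a block for the replicate number (adjusted p = 0.0702).

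The promoters of the pair and of SREBF2 are shown with the same marking, and capitals mark in addition the letters TCACNCCAC of the sterol regulatory element, searched on both strands; no marked letters overlapped between the motifs.
INSIG1 (chr7:155297628-155297877, plus strand): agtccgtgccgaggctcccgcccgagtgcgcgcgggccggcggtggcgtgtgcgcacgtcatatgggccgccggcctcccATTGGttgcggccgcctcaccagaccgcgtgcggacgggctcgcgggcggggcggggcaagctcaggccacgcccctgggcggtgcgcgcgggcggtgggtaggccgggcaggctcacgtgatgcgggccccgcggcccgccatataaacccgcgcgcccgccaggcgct
INSIG2 (chr2:118088221-118088470, plus strand): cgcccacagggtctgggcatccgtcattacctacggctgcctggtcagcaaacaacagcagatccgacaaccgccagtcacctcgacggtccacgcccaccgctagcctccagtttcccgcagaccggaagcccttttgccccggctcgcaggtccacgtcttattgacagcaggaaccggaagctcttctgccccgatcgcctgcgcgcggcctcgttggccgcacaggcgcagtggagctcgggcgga
SREBF2 (chr22:41832855-41833104, plus strand): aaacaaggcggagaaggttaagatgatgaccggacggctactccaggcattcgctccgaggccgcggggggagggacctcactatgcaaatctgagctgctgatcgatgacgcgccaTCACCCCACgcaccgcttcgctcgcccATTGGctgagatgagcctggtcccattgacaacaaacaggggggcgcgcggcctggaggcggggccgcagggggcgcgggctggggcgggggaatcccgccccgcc
INSIG1 held 1 CCAAT box and INSIG2 none. The promoter of SREBF2 was the only one of the 28 with the sterol element's letters in this form, which 0.875% of all promoters held. Other spellings of the element were not searched.

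**Figure D2:**
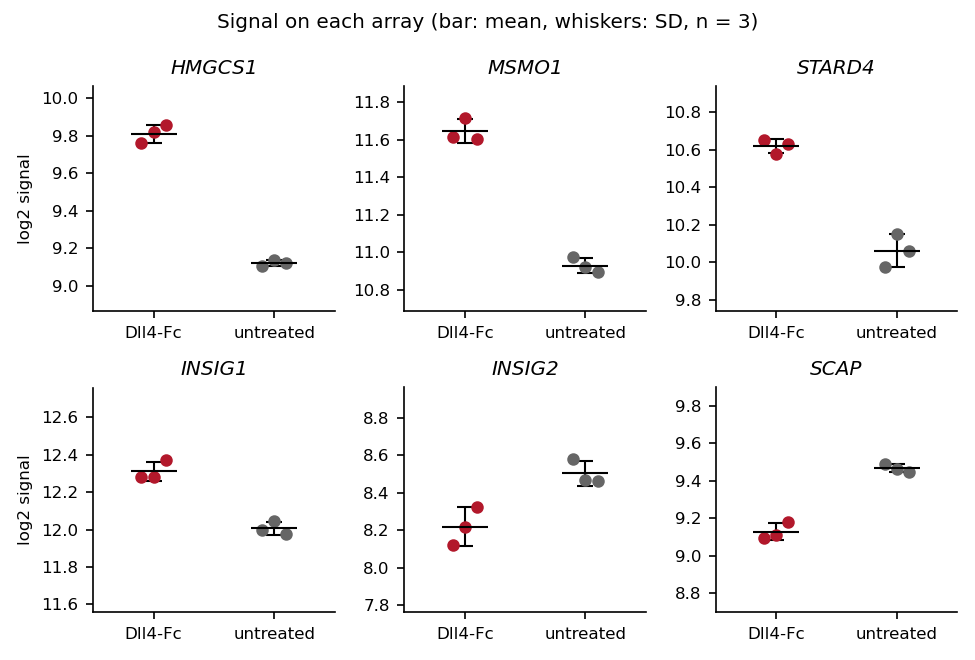
Log2 signal of 6 genes on each array, Dll4-Fc left and untreated right in each panel, with the mean as a bar and the SD as whiskers (n = 3); each panel spans 1.2 log2 units around the gene's mean. The upper row and INSIG1 are higher in Dll4-Fc, INSIG2 and SCAP lower, with no overlap in any panel.

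STARD4 is a soluble carrier that moves cholesterol between membranes and is induced when cells lack sterol. It had log2 signals of 10.65, 10.58 and 10.63 in Dll4-Fc and 9.97, 10.15 and 10.06 in untreated cells. It rose by 0.56 ± 0.06 (1.47-fold, adjusted p = 0.000617), and the gap between the groups was wider than the spread within either.

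Among the enzymes of the mevalonate steps 4 of 6 rose and 0 fell. HMGCS1, the synthase that makes the precursor of mevalonate in the cytosol, had 9.76, 9.82 and 9.86 in Dll4-Fc and 9.10, 9.13 and 9.12 in untreated cells. It rose by 0.69 ± 0.05 (1.62-fold, adjusted p = 8.86e-05), and its other probe set by 0.91 ± 0.13. ACAT2, a cytosolic thiolase that joins acetyl-CoA units, had 10.35, 10.44 and 10.41 in Dll4-Fc and 10.07, 10.10 and 10.03 in untreated cells, a rise of 0.33 ± 0.05. MVD, the decarboxylase that makes isopentenyl diphosphate, had 6.40, 6.46 and 6.39 in Dll4-Fc and 6.15, 6.12 and 6.21 in untreated cells. Its rise of 0.25 ± 0.06 (adjusted p = 0.0124) was lost when replicate 2 of either group was left out (adjusted p = 0.0534 for Dll4-Fc, 0.0544 for untreated). A block for the replicate number also removed it (adjusted p = 0.0567). IDI1, which interconverts the isopentenyl isomers, had 11.84, 11.84 and 11.83 in Dll4-Fc and 11.59, 11.45 and 11.46 in untreated cells. It rose by 0.34 ± 0.06 on this probe set, which is shared between transcripts, and 1 further shared probe set rose by 0.25. The other two probe sets of IDI1 were below 0 and did not pass: a shared one, at 7.32 in untreated cells, gave -0.14 ± 0.06, and the one that is not shared, at 5.68, gave -0.14 ± 0.10. With all 4 averaged, IDI1 did not pass (0.08, adjusted p = 0.333). The kinases MVK, which phosphorylates mevalonate, and PMVK, which phosphorylates the product of MVK, did not pass. Their differences were 0.14 ± 0.06 (adjusted p = 0.124) and 0.09 ± 0.05 (adjusted p = 0.299), although both had every Dll4-Fc array above every untreated one.

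In the stretch from isoprenoids to lanosterol 1 of 3 genes rose. SQLE, the epoxidase that oxidises squalene and one of the slow steps of the route, had 11.98, 12.08 and 12.09 in Dll4-Fc and 11.79, 11.80 and 11.79 in untreated cells. It rose by 0.26 ± 0.05 (1.19-fold, adjusted p = 0.0109). Of its 4 probe sets 2 rose and 2 did not pass, at 0.05 and -0.09, and their mean did not pass (0.13, adjusted p = 0.161). FDPS, which makes farnesyl diphosphate for sterols and for protein prenylation, gave 0.09 ± 0.05 (adjusted p = 0.304). LSS, the cyclase that closes the sterol rings, was on the other side of 0 at -0.17 ± 0.06 (adjusted p = 0.0948), with all 3 probe sets below 0 and none past the threshold; it was past the threshold as lower without Dll4-Fc replicate 3 (adjusted p = 0.0497).

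From lanosterol to cholesterol 5 of 7 genes rose and 0 fell. MSMO1, the oxidase that starts removal of the methyl groups at carbon C-4 of the sterol, had 11.62, 11.72 and 11.61 in Dll4-Fc and 10.97, 10.92 and 10.89 in untreated cells. It rose by 0.72 ± 0.06 (1.65-fold, adjusted p = 0.000115). HSD17B7, a ketosteroid reductase of the same demethylation complex, had 9.77, 9.65 and 9.81 in Dll4-Fc and 9.36, 9.30 and 9.44 in untreated cells, a rise of 0.38 ± 0.07. Its only probe set is of the kind that can also bind related transcripts. EBP, the sterol isomerase, had 10.63, 10.66 and 10.69 in Dll4-Fc and 10.29, 10.29 and 10.33 in untreated cells, a rise of 0.36 ± 0.05; a further probe set, not shared, rose by 0.32, and 2 dimmer ones did not pass. With all 4 averaged, EBP did not pass (0.15, adjusted p = 0.0765).

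Of the other 4 genes of this stretch 2 rose. SC5D, a sterol desaturase, had 10.79, 10.84 and 10.90 in Dll4-Fc and 10.59, 10.57 and 10.49 in untreated cells, a rise of 0.29 ± 0.06 (adjusted p = 0.00841). Its unshared probe set, at 3.85 in untreated cells, gave 0.16 (adjusted p = 0.387). DHCR7, the reductase that turns 7-dehydrocholesterol into cholesterol, had 8.61, 8.63 and 8.51 in Dll4-Fc and 8.13, 8.07 and 7.65 in untreated cells. Untreated array 3 lay well below the other two, and the rise was 0.63 ± 0.12 (1.55-fold, adjusted p = 0.00824) with it and 0.48 without it (adjusted p = 0.0026). NSDHL, which removes the carboxyl group during demethylation, gave 0.20 ± 0.08 (adjusted p = 0.0998), without overlap. TM7SF2, one of the sterol reductases that act after CYP51A1, gave -0.04 ± 0.07 (adjusted p = 0.738), and its groups overlapped.

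**Figure D3:**
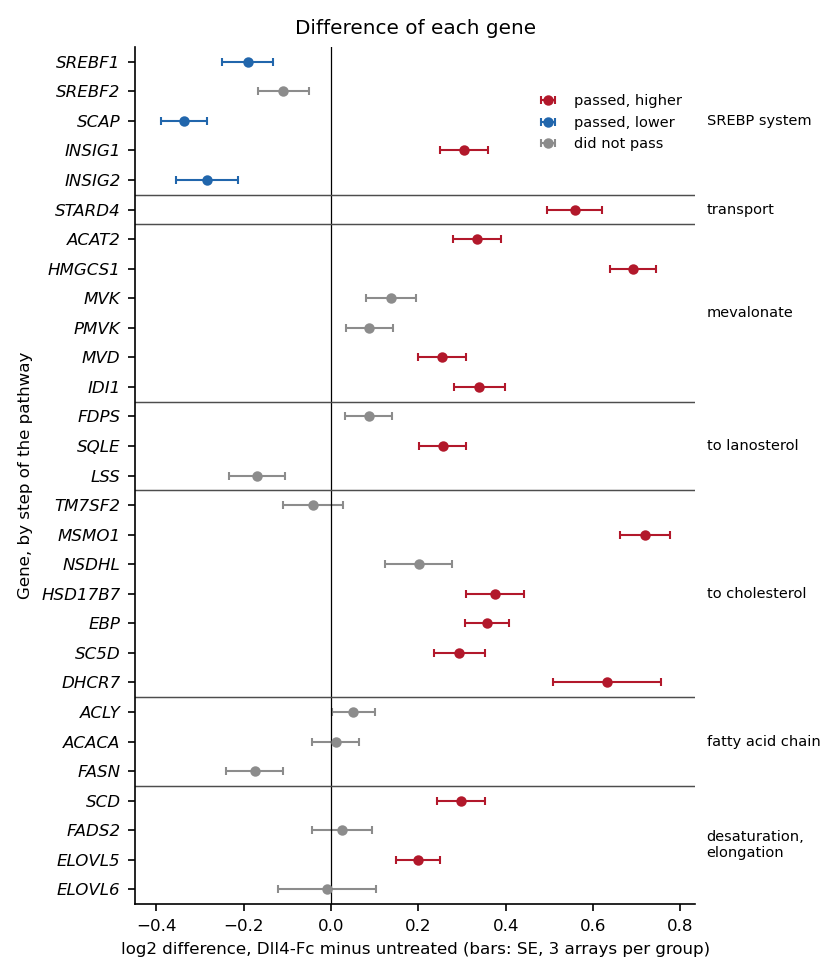
Log2 difference of each gene, Dll4-Fc minus untreated, with its SE (3 arrays per group), by step of the pathway; red genes passed as higher, blue as lower, grey did not pass. The 14 red genes lie between 0.20 and 0.72, the 3 blue ones between -0.34 and -0.19, and the 3 fatty acid chain genes are all grey.

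None of the 3 enzymes that build the fatty acid chain passed the test, and at an unadjusted p under 0.05 (limma) there was 1 of the 3, FASN, lower. The share of all genes past that looser threshold was not counted, so this does not set FASN apart. ACLY, which splits citrate to give cytosolic acetyl-CoA for both routes, had 12.41, 12.40 and 12.40 in Dll4-Fc and 12.38, 12.35 and 12.34 in untreated cells. Its difference was 0.05 with an unadjusted 95% interval of -0.06 to 0.17. ACACA, the carboxylase that makes malonyl-CoA, had 9.69, 9.69 and 9.70 in Dll4-Fc and 9.72, 9.70 and 9.62 in untreated cells, a difference of 0.01 with an interval of -0.11 to 0.14. FASN, the fatty acid synthase, had 9.83, 9.76 and 9.77 in Dll4-Fc and 10.06, 9.94 and 9.87 in untreated cells. It gave -0.17 ± 0.07 (adjusted p = 0.0962), below without overlap, and was past the threshold as lower without untreated replicate 3 (adjusted p = 0.0464), with the trended robust prior (0.0311) and with array weights (0.0486). For ACLY and ACACA the intervals exclude a change as large as that of HMGCS1 or MSMO1.

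Among the genes that desaturate and lengthen fatty acids 2 of 4 rose. SCD, which puts the first double bond into saturated fatty acids and responds to both SREBP-1 and LXR, had 12.18, 12.25 and 12.25 in Dll4-Fc and 11.98, 11.90 and 11.90 in untreated cells. It rose by 0.30 ± 0.06 (1.23-fold, adjusted p = 0.00647); its other 3 probe sets, all shared, gave 0.34 to 0.41, and 1 of them passed. ELOVL5, an elongase of polyunsaturated fatty acids, had 12.74, 12.75 and 12.76 in Dll4-Fc and 12.58, 12.51 and 12.56 in untreated cells. Its rise of 0.20 ± 0.05 (adjusted p = 0.0232) did not pass without Dll4-Fc replicate 1, 2 or 3 or without untreated replicate 2 (adjusted p up to 0.0928). Nor did it pass with the mean of probe sets (0.0885), median centring (0.0573) or a block for the replicate number (0.0925). FADS2, a desaturase of polyunsaturated fatty acids, gave 0.03 ± 0.07 (adjusted p = 0.844). ELOVL6, which lengthens saturated chains, lay at 3.60 to 3.90 in Dll4-Fc and 3.56 to 3.89 in untreated cells on a dim probe set, with a difference of -0.01 ± 0.11 (adjusted p = 0.966).

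**Figure D4:**
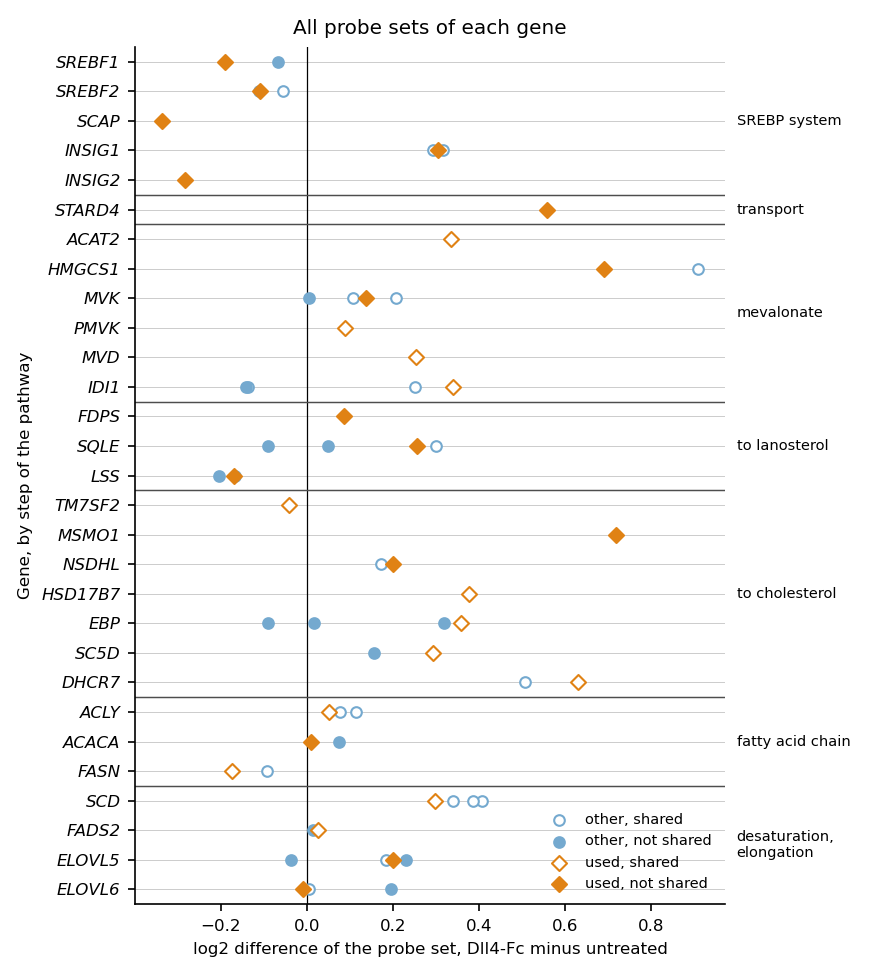
Log2 difference, Dll4-Fc minus untreated, of all 65 probe sets of the 29 genes, by step of the pathway; diamonds are the probe sets used, circles the others, and open symbols are shared between transcripts. The 3 probe sets of INSIG1 and the 4 of SCD fall close together, while those of IDI1, SQLE and EBP spread to both sides of 0.

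How far the members agreed within themselves was read from their 65 probe sets. Of the 14 genes that rose, 9 had further probe sets, 20 in all. Of these 20, 9 rose, 0 fell and 11 did not pass, and 10 of those 11 lay below a log2 signal of 8 in untreated cells. The exception was an unshared probe set of SQLE, at 10.0 in untreated cells, with a difference of 0.05. For 8 of the 14, ACAT2, MVD, IDI1, HSD17B7, EBP, SC5D, DHCR7 and SCD, the probe set used is shared between transcripts. The rises of HMGCS1, MSMO1, STARD4, INSIG1, SQLE and ELOVL5 rest on probe sets that are not.

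Genes around the synthesis route were counted by list from the same fit. Over all related lists 20 of 64 genes rose and 16 fell, where 11.6% of all genes tested were higher and 15.0% lower. With dim genes left out, 23 of 60 rose and 17 fell, where 18.2% of all genes were higher and 25.5% lower. No list was tested against these shares, so that the counts below do not by themselves set a list apart from all genes. Of 8 other genes known to be regulated by sterols 4 rose: LPIN1, a phosphatidate phosphatase (0.49 ± 0.05), RDH11, a retinol dehydrogenase (0.47 ± 0.05), POR, the electron donor of microsomal P450 enzymes (0.38 ± 0.06), and ERG28, a scaffold of the C-4 demethylation complex (0.30 ± 0.07). With the mean of probe sets RDH11 and ERG28 rose by 0.22 and 0.19. ERG28 gave -0.00 without shared probe sets and did not pass without Dll4-Fc replicate 1 or 2. The fall of ALDOC, an aldolase (-0.26 ± 0.08, adjusted p = 0.0419), was lost when any array other than Dll4-Fc replicate 3 was left out. A block for the replicate number, no shared probe sets, cyclic loess and median centring each removed it too (adjusted p up to 0.0855). Of 6 measured genes for processing SREBPs and for sterol-regulated degradation 0 rose and 2 fell. They were ERLIN1, a membrane scaffold that restrains SREBP activation (-0.31 ± 0.06), and MBTPS1, the site-1 protease that cuts SREBPs in the Golgi (-0.28 ± 0.08). MBTPS1 gave -0.15 when its probe sets were averaged (adjusted p = 0.106), and did not pass then nor without Dll4-Fc replicate 1 or 2 or untreated replicate 1 or 2 (adjusted p up to 0.106). Nor did it pass with a block for the replicate number (adjusted p = 0.0844).

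Isoprenoids also leave the route before squalene, and 3 of 9 genes of those branches rose and 0 fell. COQ2, which attaches the isoprenoid tail of coenzyme Q, rose by 0.53 ± 0.05 (1.44-fold, adjusted p = 0.000268). NUS1 and DHDDS, the 2 subunits of the enzyme that makes dolichol precursors, rose by 0.39 ± 0.05 and 0.33 ± 0.05. The subunits of protein prenylating enzymes FNTA, FNTB and PGGT1B did not pass (-0.00 ± 0.06, -0.32 ± 0.15 and 0.18 ± 0.06). FNTB averaged 4.76 in Dll4-Fc and 5.08 in untreated cells, below the median of all probe sets. PGGT1B passed as higher without dim genes, with cyclic loess, with the trended robust prior and with log2 of intensity plus 16 (adjusted p = 0.0114 to 0.0423). PDSS2, a subunit of the enzyme that makes the coenzyme Q tail, passed as lower with the mean of probe sets, the trended robust prior and array weights, and GGPS1, which makes geranylgeranyl diphosphate, with the prior and the weights, so that 1 or 2 of the 9 then fell.

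Of 9 genes that release, store and move sterol 5 rose and 1 fell. On the probe sets used the rises of LIPA, NCEH1 and SOAT1 were larger than that of any of the 29 synthesis genes. LIPA, the lysosomal acid lipase that frees cholesterol from lipoprotein esters, averaged 13.28 ± 0.04 in Dll4-Fc and 11.32 ± 0.03 in untreated cells (SD, n = 3), a rise of 1.95 ± 0.05 (3.88-fold, limma adjusted p = 5.18e-07). NCEH1, a cholesteryl ester hydrolase of macrophages, rose by 1.09 ± 0.17 (2.13-fold) and SOAT1, which esterifies cholesterol for storage, by 0.75 ± 0.08 (1.69-fold). NPC1 and NPC2, which pass cholesterol out of the lysosome, rose by 0.68 ± 0.07 and 0.44 ± 0.05. With the mean of probe sets the rises of LIPA, SOAT1 and NPC1 were 1.12, 0.38 and 0.24. GRAMD1B, a carrier of cholesterol from the plasma membrane to the endoplasmic reticulum, fell by 0.61 ± 0.06 on the log2 scale, and the number that fell was 2, with GRAMD1A, without untreated replicate 3 and in 5 other alternatives.

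Of 7 measured genes of the LXR list 1 rose and 2 fell. ABCA1, the cholesterol exporter, rose by 0.48 ± 0.09 (1.40-fold, adjusted p = 0.00645), while MYLIP, a ubiquitin ligase for lipoprotein receptors, and PLTP, the phospholipid transfer protein, fell by 0.59 ± 0.08 and 0.57 ± 0.09. The exporter ABCG1 gave -0.01 ± 0.08 at a signal below the median of all probe sets. NR1H3, the gene of LXR alpha, and RXRA, its partner, gave 0.16 ± 0.05 (adjusted p = 0.0543) and 0.14 ± 0.05 (adjusted p = 0.0855), and neither passed. NR1H3 passed as higher without dim genes, with cyclic loess, with array weights and with log2 of intensity plus 16, and RXRA in those 4 and also with the mean of probe sets and the trended robust prior, so that the number that rose was then 2 or 3.

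Fatty acid genes outside the main route went both ways. Of 18 measured genes for synthesis, activation and elongation 7 rose and 6 fell. ACSL1 and ACSL4, which attach CoA to long-chain and polyunsaturated fatty acids, rose by 1.27 ± 0.07 (2.41-fold) and 0.78 ± 0.16, although ACSL4 gave 0.19 without shared probe sets (adjusted p = 0.24). ACACB, the mitochondrial counterpart of ACACA whose product restrains fatty acid import, fell by 0.80 ± 0.09 (1.74-fold). With the mean of probe sets the differences of ACSL4 and ACACB were 0.39 and -0.39. With Dll4-Fc replicate 1 left out 2 of the 18 fell. As many fell with untreated replicate 2 left out or with a block for the replicate number. Without Dll4-Fc replicate 2 the number that fell was 3, and 3 of 14 rose without shared probe sets. Of 7 measured genes of fatty acid oxidation 0 rose and 4 fell. CPT1A, the gate for entry of fatty acids into mitochondria, averaged 10.22 ± 0.15 in Dll4-Fc and 11.14 ± 0.07 in untreated cells (SD, n = 3), a difference of -0.92 ± 0.09 (1.89-fold, limma adjusted p = 0.000241). PPARA, a nuclear receptor that induces oxidation genes, fell by 0.48 ± 0.07, and HADHA and HADHB, the subunits of the mitochondrial trifunctional protein, by 0.25 ± 0.06 and 0.21 ± 0.05. HADHA and HADHB did not pass without Dll4-Fc replicate 2, untreated replicate 1 or untreated replicate 2, when 2 of the 7 fell, and HADHB also not without Dll4-Fc replicate 1 (adjusted p = 0.1). With a block for the replicate number neither passed (adjusted p = 0.0549 for HADHA, 0.0942 for HADHB).

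**Figure D5:**
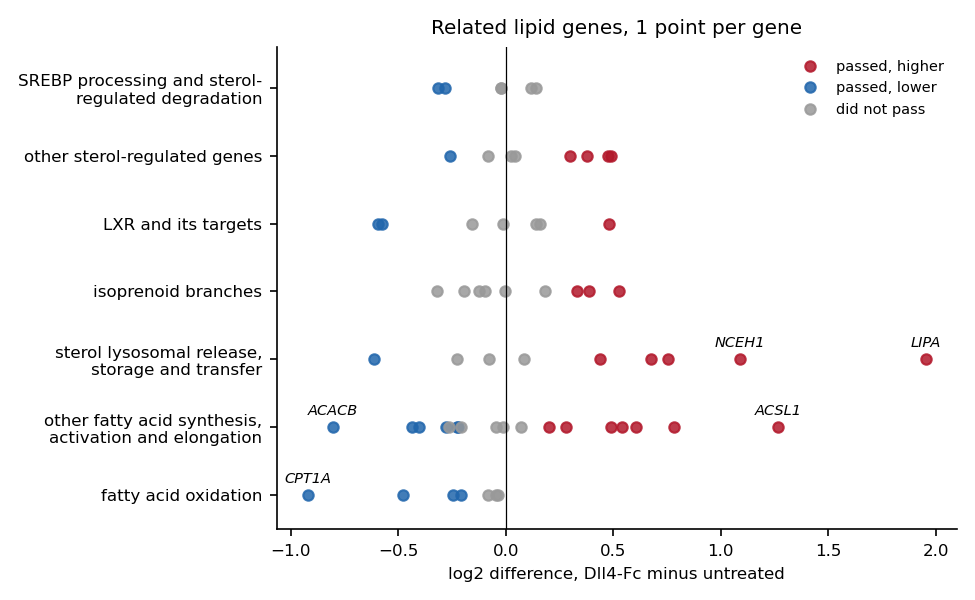
Log2 difference, Dll4-Fc minus untreated, of each measured gene of 7 related lists; 1 point is 1 gene, red passed as higher, blue as lower, grey did not pass. LIPA stands farthest to the right at 1.95 and CPT1A farthest to the left at -0.92, and no oxidation gene lies above 0.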

How the data were processed

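The 6 arrays were made from 5 ng of RNA each, amplified before labelling per the labels' protocols. The authors deposited linear intensities, 1 per probe set and array, which they made with RMA per the submitters' processing notes (version not given in the sources used here); RMA shrinks differences of dim probe sets and equalises the arrays' distributions. Array medians were 50.6 to 52.7. Intensities were log2 transformed here. Genes came from the platform annotation (41097 probe sets with 1 symbol, 1801 with several, 11777 not listed); Entrez numbers of 41043 matched RefSeq (GRCh38.p14) and 54 did not.

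The comparison used limma 3.58.1 (lmFit, eBayes, 2-sided; R 4.3.3), with p-values adjusted by Benjamini-Hochberg over 19775 genes at 0.05, or over all 41097 probe sets for calls of single probe sets. Differences are Dll4-Fc minus untreated, ± is their SE, and folds are powers of 2. Precision is set by the number of arrays, with a median SE of 0.075. The labels do not say whether samples came from separate cultures, so p-values measure only how far these samples scatter, and that scatter may be technical. The fit was tested on simulated data with changes planted in 50 genes per size. It recovered 10% of them at a log2 difference of 0.25, 62% at 0.5 and 94% at 1. Of 142 calls there 9 were false. Far fewer genes were called than in the data, so the adjusted threshold was stricter there.

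By rule all members are named, with values per array where they passed or belong to the SREBP system, and up to 3 passing genes per related list; array values of ACLY, ACACA and FASN and further related genes were added after values were seen. Members, lists and motifs were chosen with earlier results of these data known. Shared probe sets are those named _s_at, _x_at or _a_at; dim genes have a mean under the median of all probe sets. Alternatives were a block for the replicate number, gene values averaged over probe sets, no shared probe sets, no dim genes, cyclic loess, median centring, a trended robust prior, array weights, log2 of intensity plus 16, and leaving out each array. The deviations of same-numbered samples correlated over all genes at 0.015, -0.209 and -0.152. Over all genes the numbers thus showed no pairing, and a pairing that touches only some genes was not tested.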

Additional observations from a re-analysis of the deposited data

How the results depend on the processing

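Of the 17 members past the threshold, 9 kept direction and call in each of the 15 alternatives that measured them. Of these 9, ACAT2, HSD17B7, DHCR7 and SCD had no unshared probe set, so that only 14 alternatives measured them. Without shared probe sets IDI1 turned to -0.141 and the sterol-regulated gene ERG28 to -0.001, neither past the threshold. Both unshared probe sets are other probe sets than those used. The number of members that rose was 14, 7 of 20 measured without shared probe sets, 10 with the mean of probe sets, and 12 to 14 with 1 array left out. MVK and NSDHL also passed as higher with cyclic loess (adjusted p = 0.0386 and 0.0253), and SREBF2, LSS and FASN as lower with array weights (0.0495, 0.0234 and 0.0486). The number that fell was 3, 1 with the replicate block, 6 with array weights, and 1 to 3 with 1 array left out. Their median of 0.200 was 0.112 without shared probe sets, 0.114 with the mean of probe sets, 0.226 with cyclic loess, 0.166 with array weights and 0.161 to 0.215 with 1 array left out. Over all genes 2298 rose and 2964 fell, 1795 to 2269 and 1850 to 3189 with 1 array left out; cyclic loess turned the share of calls that were higher to 53.7%, against 43.7%. The number of all genes that fell was also smaller with the replicate block and larger with array weights. The changes in the number of members that fell were not tested against it, and do not by themselves set the members apart. In the 7 related lists 20 of 64 genes rose and 16 fell, and 17 to 19 rose and 8 to 15 fell with 1 array left out. With the replicate block 9 of the 64 fell, among them FNTB (adjusted p = 0.0482), whose probe set is dim. The numbers did not pair the samples, and with the block 12 members rose. The cause of the other changes was not tested. Dim probe sets such as those of ELOVL6 limit what RMA can resolve.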
